A study of Arabidopsis thaliana with 12 samples.

Results

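Fibrillins are nuclear-encoded plastid proteins, also called plastoglobulins or plastid-lipid associated proteins. The 10 loci described here were given as a list of plastid-lipid associated (fibrillin) genes, and they are 10 of the 32673 genes in the count table. All 10 were found under their locus names, and all 10 passed the filter on low counts, which kept 19879 genes. They were chosen by family name with measured values of these libraries already known, and which of those values they were also selected on is not stated, so the levels and differences of the 10 loci are given as a description and not as tests. Another 4 loci of the family were described beside them.

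Fibrillins coat plastoglobules, the lipid droplets that bud from thylakoid membranes and hold plastoquinone, tocopherols, carotenoids and breakdown products of chlorophyll. The family took its name from the carotenoid fibrils of pepper chromoplasts, and in leaves its members are found at plastoglobules, at thylakoids and in the stroma. In Arabidopsis, the FIB precursor is known to interact with the phosphatase ABI2 in abscisic acid signalling, and FIB4 is known to be required for plastoglobule development and stress resistance.

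RNA was sequenced from whole seedlings of Arabidopsis thaliana, accession Nossen (No-0), in 12 libraries that formed 4 groups of 3: 35S::KNAT1 in PAC+GA3, 35S::KNAT1 in PAC, wild type in PAC+GA3 and wild type in PAC. The 35S::KNAT1 line expresses KNAT1, a class I KNOX homeodomain transcription factor, from the broadly active 35S promoter of cauliflower mosaic virus, and the labels do not say how many lines were used. All seedlings had grown for 7 days under continuous light and then spent 18 h in 10 µM paclobutrazol (PAC), an inhibitor of gibberellin synthesis, so no group was free of it. For the last 5 h they stayed in 10 µM PAC, with or without 100 µM of the gibberellin GA3. The labels do not say whether replicates were separate cultures, so each p-value reflects the scatter among these libraries, part or all of which may be technical.

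Library totals ran from 9232836 to 14053594 counts, and the 10 fibrillins took between 0.0701% and 0.102% of them. KNAT1 (AT4G08150) stood at 437 ± 42.2 and 423 ± 30.8 CPM (the share of a library's counts that fall on the gene, on the usual CPM scale, with TMM scaling between libraries) in 35S::KNAT1 with GA3 and in PAC alone, against 22.2 ± 0.459 and 20.7 ± 3.55 CPM in wild type (SD, n = 3 each). rRNA genes took 1.44% of counts in 35S::KNAT1 PAC+GA3 replicate 1, and 0.492% and 0.351% in wild-type PAC replicates 2 and 3, against 0.113% to 0.199% in the other 9 libraries.

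Most of the fibrillins were lower in 35S::KNAT1 than in wild type, in either medium. With GA3, 7 of the 10 were called lower, 1 higher and 2 not called, at an adjusted p below 0.05 by edgeR's quasi-likelihood test. In that comparison 25.5% of all 19879 genes tested were called, 13.6% lower and 12% higher. In PAC alone 6 were called lower, 1 higher and 3 not called, where 25.2% of all genes tested were called, 12.9% lower and 12.3% higher. Scaling by total counts alone would place 66.5% of the calls over all genes in the higher direction with GA3 and 67.4% in PAC, against 46.9% and 48.7% with TMM. The median log2 difference of the 10 loci was -0.42 with GA3 and -0.34 in PAC, against 0.01 and 0.00 over all genes tested. Because the loci were chosen with results of these data known, possibly from these comparisons, the counts are given beside the background and nothing is read from them.

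Green tissue markers differed in the same direction as most fibrillins. All 10 of 10 green tissue markers, genes of photosystems, light harvesting and carbon fixation, were called lower in 35S::KNAT1 in either medium, with median log2 differences of -1.0 with GA3 and -0.93 in PAC. The summed level of these markers was 21770 to 26750 CPM in 35S::KNAT1 with GA3 against 42490 to 53980 CPM in wild type with GA3, and 21220 to 26980 CPM in 35S::KNAT1 in PAC against 43670 to 45720 CPM in wild type in PAC. Of 7 root markers 3 were called higher and 4 not called in either medium by edgeR, with median log2 differences of 0.66 with GA3 and 0.39 in PAC. DESeq2 called 2 of them higher in either medium. Their summed level was 3650 to 4213 CPM in 35S::KNAT1 against 3760 to 5946 CPM in wild type with GA3, and 3909 to 4162 CPM in 35S::KNAT1 against 4144 to 5839 CPM in wild type in PAC. That sum is nearly all PYK10 (AT3G09260, a beta-glucosidase of root ER bodies, named after its values were seen), which had 3798 ± 277 CPM in 35S::KNAT1 against 4646 ± 1097 CPM in wild type with GA3, and 3940 ± 127 CPM in 35S::KNAT1 against 4797 ± 865 CPM in wild type in PAC (SD, n = 3 each). PYK10 differed by -0.29 with GA3 and -0.28 in PAC on the log2 scale, not called in either medium and opposite in sign to the list's median. No marker of either list was at 0. The 3 root markers called higher were TIP2-3, EXPA7 and NRT2.1, of which NRT2.1 lay near 0. NRT2.1 had a mean of 1.61 CPM in 35S::KNAT1 against 0.819 CPM in wild type with GA3, and 1.46 against 0.677 CPM in PAC. In these bulk samples, fewer green cells and less RNA per cell cannot be told apart, and the part of tissue makeup in the fibrillin differences was not tested.

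**Figure D1:**
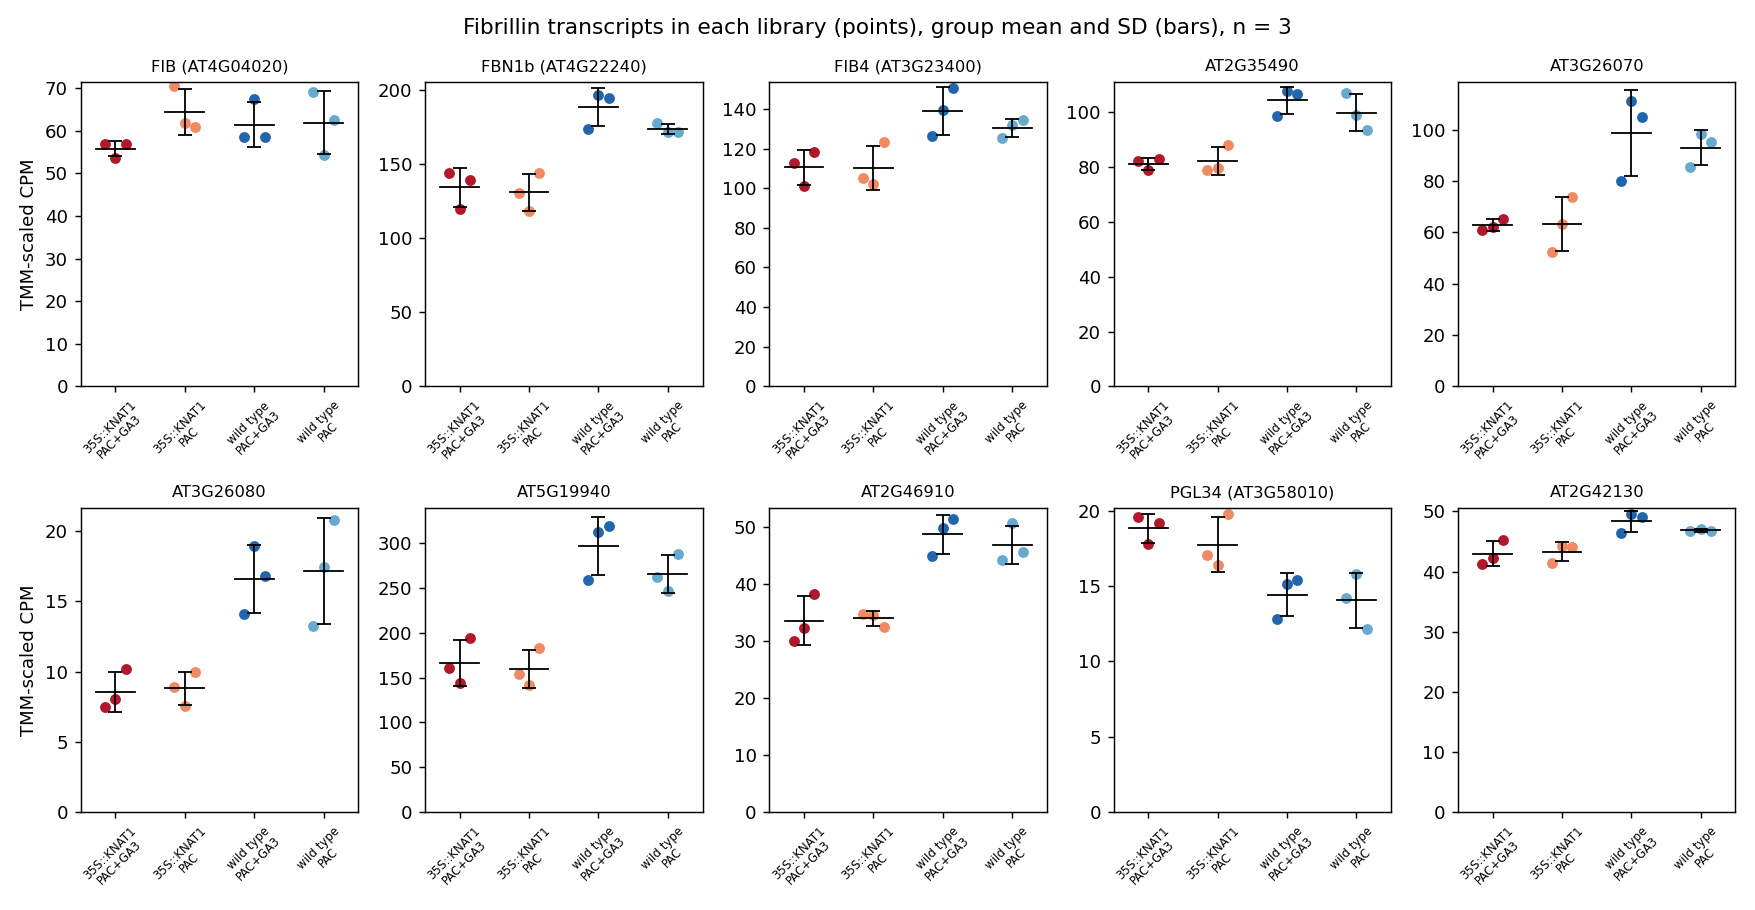
TMM-scaled CPM (vertical axis, from 0) of the 10 fibrillins in each library (points) of the 4 groups (horizontal axis), with the mean and SD as bars, n = 3. Apart from FIB, which overlaps in PAC, and PGL34, which lies higher, the other 8 loci lie lower in every 35S::KNAT1 library than in every wild-type library of the same medium.

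FIB (AT4G04020, chromosome 4, 1932144 to 1933950, plus strand, TAIR10) and FBN1b (AT4G22240, chromosome 4, 11765803 to 11767304, minus strand) are close relatives, and FIB is also annotated as the plastoglobule protein PGL35. Each has 3 exons, and they encode 318 and 310 amino acids in the RefSeq models of TAIR10.1, whose nuclear chromosomes have the lengths of the TAIR10 build named in the submitters' notes. Their coding sequences share 81.3% of aligned bases. The longest run they share is 38 bases, at chr4:1932527-1932564 and chr4:11766848-11766885. It is shown in capitals with 15 coding bases on each side. The run is an exact match within coding sequence, so it does not limit read matches that allow mismatches or lie outside it.
FIB: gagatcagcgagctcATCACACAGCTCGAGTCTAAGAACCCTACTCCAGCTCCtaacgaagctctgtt
FBN1b: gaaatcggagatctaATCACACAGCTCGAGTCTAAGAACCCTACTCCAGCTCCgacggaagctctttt
No stretch of 50 bases in the longest transcript of any of the 14 family genes occurred elsewhere in the nuclear reference genome, which was searched without joining exons. The reference is of the Columbia accession and the seedlings are Nossen. How reads that match more than 1 gene were counted is not given in the sources used here.

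FBN1b was lower in 35S::KNAT1. With GA3 it had 144, 119 and 139.5 CPM in 35S::KNAT1 against 174, 196 and 195 CPM in wild type, a log2 difference of -0.49 ± 0.09 (SE). In PAC, FBN1b had 131, 118 and 144 CPM in 35S::KNAT1 against 178, 172 and 172 CPM in wild type, a log2 difference of -0.41 ± 0.09 (SE). The genotypes did not overlap in either medium, and both differences were called in all 21 alternative settings.

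FIB, its closest relative, showed no called difference between the genotypes. With GA3 it had 56.9, 53.7 and 56.9 CPM in 35S::KNAT1 against 58.5, 67.5 and 58.5 CPM in wild type, a log2 difference of -0.14 ± 0.10 (SE, 95% interval -0.34 to 0.06). In PAC, FIB had 70.6, 61.8 and 60.9 CPM in 35S::KNAT1 against 69.1, 54.3 and 62.5 CPM in wild type, a log2 difference of 0.06 ± 0.10 (SE, 95% interval -0.14 to 0.26). The 35S::KNAT1 libraries with GA3 lay just below those of wild type, and in PAC the genotypes overlapped. With GA3, the groups did not overlap in 9 of the 10 fibrillins in the lower direction and 1 in the higher, where 38.6% of all genes tested showed no overlap, 19.2% lower and 19.4% higher. In PAC the numbers were 8 lower and 1 higher, where 40.4% of all genes showed none, 19.8% lower and 20.6% higher.

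Ratios of read counts within this pair and the pairs below are given as a description, and differences in them between genotypes were not tested. FBN1b had 2.22 to 2.53 reads per FIB read in 35S::KNAT1 with GA3, against 2.91 to 3.33 in wild type with GA3. In PAC the ratio was 1.85 to 2.36 in 35S::KNAT1, against 2.57 to 3.16 in wild type. These ranges did not overlap in either medium, and the ratio of 2 genes in a library does not depend on the scaling between libraries. How many other gene pairs separate the genotypes in this way was not counted.

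**Figure D2:**
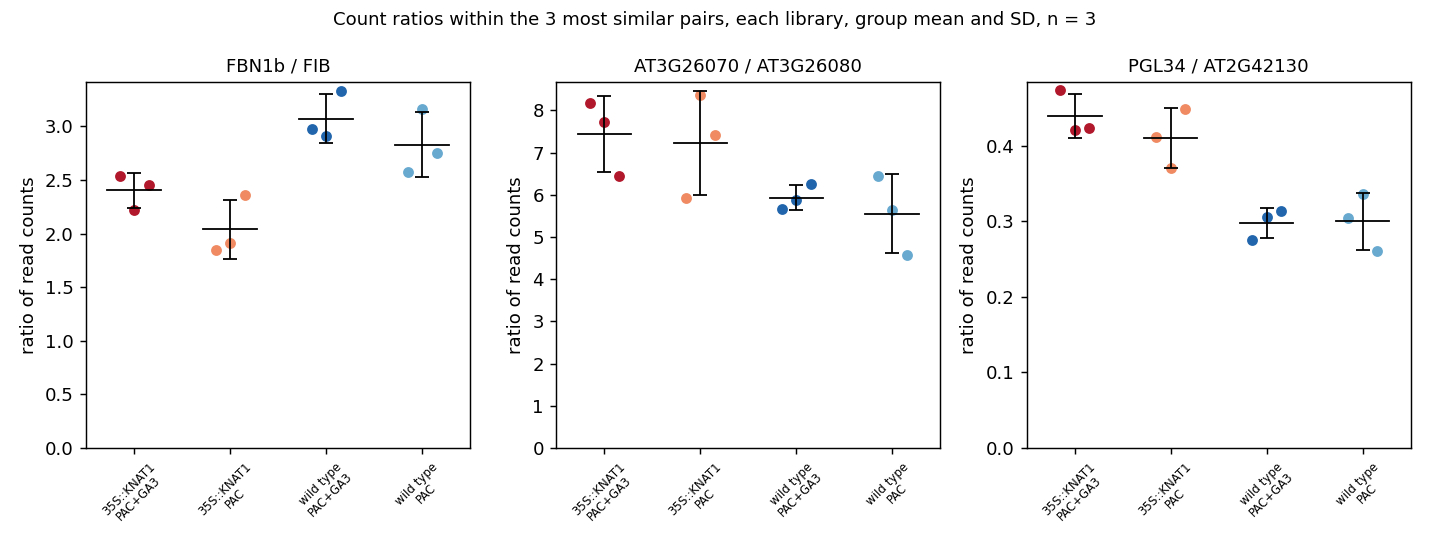
Ratio of read counts (vertical axis, from 0) within the 3 pairs of fibrillins with the most similar coding sequences, per library (points) in the 4 groups (horizontal axis), with mean and SD as bars, n = 3. The FBN1b to FIB ratio is lower and the PGL34 to AT2G42130 ratio higher in every 35S::KNAT1 library than in every wild-type library of the same medium, and the AT3G26070 to AT3G26080 ratio overlaps between genotypes in PAC.

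AT3G26070 (chromosome 3, 9526714 to 9528583) and AT3G26080 (chromosome 3, 9528774 to 9530496) are annotated only as members of the family and lie next to each other on the plus strand, with 190 bases between them. They share 90.4% of aligned coding bases, the highest of the 45 pairs among the 10 loci. Their longest shared run, 44 bases at chr3:9528152-9528195 and chr3:9530357-9530400, ends 1 base before the stop codon of each. It is printed in capitals, with 15 bases before it and the coding bases left after it.
AT3G26070: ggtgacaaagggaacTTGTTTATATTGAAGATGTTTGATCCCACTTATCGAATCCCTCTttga
AT3G26080: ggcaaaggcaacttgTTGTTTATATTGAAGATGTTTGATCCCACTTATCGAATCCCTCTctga

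Both tandem genes were lower in 35S::KNAT1, and AT3G26080 had the most negative log2 difference of the 10 loci in either medium. AT3G26080 had 7.45, 8.07 and 10.2 CPM in 35S::KNAT1 with GA3 against 14.1, 18.9 and 16.8 CPM in wild type with GA3, a log2 difference of -0.95 ± 0.17 (SE). In PAC, AT3G26080 had 8.88, 7.59 and 9.94 CPM in 35S::KNAT1 against 13.3, 17.5 and 20.8 CPM in wild type, a log2 difference of -0.97 ± 0.17 (SE). It rested on 90 to 116 reads per 35S::KNAT1 library and 153 to 221 per wild-type library.

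AT3G26070 had 60.9, 62.3 and 65.4 CPM in 35S::KNAT1 with GA3 against 79.9, 111 and 105 CPM in wild type, a log2 difference of -0.65 ± 0.13 (SE). In PAC, AT3G26070 had 52.6, 63.5 and 73.8 CPM in 35S::KNAT1 against 85.5, 98.4 and 95.2 CPM in wild type, a log2 difference of -0.56 ± 0.13 (SE). The genotypes did not overlap for either gene in either medium. AT3G26070 had 6.44 to 8.17 reads per AT3G26080 read in 35S::KNAT1 against 5.67 to 6.25 in wild type with GA3, and 5.92 to 8.37 in 35S::KNAT1 against 4.58 to 6.44 in wild type in PAC. Leaving out the 3 rRNA-rich libraries keeps 1 wild-type library in PAC, and the PAC differences were then -0.60 for AT3G26080 and -0.43 for AT3G26070 and neither was called.

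AT5G19940 (chromosome 5, 6739624 to 6740957, plus strand) encodes a family member of 239 amino acids and was the most abundant fibrillin per length. With GA3 it had 161, 144 and 194 CPM in 35S::KNAT1 against 259, 312 and 319 CPM in wild type, a log2 difference of -0.83 ± 0.12 (SE). In PAC, AT5G19940 had 154, 141 and 183 CPM in 35S::KNAT1 against 262, 246 and 288 CPM in wild type, a log2 difference of -0.74 ± 0.12 (SE). Every 35S::KNAT1 library lay well below every wild-type library, and both differences were called in all 21 alternative settings. The last 181 bases of the gene overlap AT5G19950 on the other strand, and without a known strand setting reads there cannot be assigned to either gene.

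AT2G46910 (chromosome 2, 19272281 to 19274002, plus strand), a family member spread over 9 exons, was lower in 35S::KNAT1 as well. It had 30.1, 32.3 and 38.3 CPM in 35S::KNAT1 with GA3 against 44.8, 49.8 and 51.4 CPM in wild type, a log2 difference of -0.54 ± 0.10 (SE). In PAC, AT2G46910 had 34.7, 34.6 and 32.5 CPM in 35S::KNAT1 against 44.2, 50.6 and 45.5 CPM in wild type, a log2 difference of -0.46 ± 0.10 (SE), which was -0.38 and not called when the 3 rRNA-rich libraries were left out. The genotypes did not overlap in either medium. The gene shares 104 bases at its end with AT2G46915 on the other strand.

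FIB4 (AT3G23400, chromosome 3, 8376444 to 8378305, minus strand) and AT2G35490 (chromosome 2, 14912144 to 14913877, minus strand) differed less. FIB4 had 113, 101 and 118 CPM in 35S::KNAT1 with GA3 against 126, 139.7 and 150.4 CPM in wild type, a log2 difference of -0.33 ± 0.09 (SE) that was called. In PAC, FIB4 had 105, 102 and 123 CPM in 35S::KNAT1 against 126, 132 and 134 CPM in wild type, a log2 difference of -0.24 ± 0.09 (SE) that was not called. This PAC difference was called at -0.25 with the replicate block and at -0.24 when only the groups compared were fitted. The genotypes did not overlap in either medium. The GA3 call was lost without 35S::KNAT1 PAC+GA3 replicate 2 and without wild-type PAC+GA3 replicate 3, at -0.27 each, and the PAC difference was called at -0.33 without 35S::KNAT1 PAC replicate 3.

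AT2G35490 encodes the longest protein of the 10, at 376 amino acids. It had 82.1, 78.7 and 82.8 CPM in 35S::KNAT1 with GA3 against 98.6, 108 and 107 CPM in wild type, a log2 difference of -0.36 ± 0.08 (SE). In PAC, AT2G35490 had 78.9, 79.8 and 88.0 CPM in 35S::KNAT1 against 107, 98.9 and 93.4 CPM in wild type, a log2 difference of -0.28 ± 0.08 (SE). Both were called and the genotypes did not overlap. In PAC the difference did not pass without wild-type PAC replicate 1 (-0.23) or without replicate 1 (-0.25) or replicate 2 (-0.26) of 35S::KNAT1 in PAC.

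PGL34 (AT3G58010, plastoglobulin 34kD, chromosome 3, 21475805 to 21477569, minus strand) and AT2G42130 (chromosome 2, 17566185 to 17568144, plus strand) form the third similar pair, with 80.4% of aligned coding bases in common. Their longest shared run is 25 bases, at chr3:21476012-21476036 and chr2:17567841-17567865, shown in capitals with 15 coding bases on each side.
PGL34: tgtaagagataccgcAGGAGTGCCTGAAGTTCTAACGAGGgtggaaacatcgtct
AT2G42130: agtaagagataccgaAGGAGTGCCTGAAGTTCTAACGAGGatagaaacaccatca
Beyond the 3 pairs shown, no other pair of the 10 shared a coding run longer than 17 bases.

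PGL34 was the one listed fibrillin that was higher in 35S::KNAT1. It had 19.5, 17.8 and 19.2 CPM in 35S::KNAT1 with GA3 against 12.8, 15.1 and 15.4 CPM in wild type, a log2 difference of 0.39 ± 0.12 (SE). In PAC, PGL34 had 17.1, 16.4 and 19.8 CPM in 35S::KNAT1 against 14.2, 15.8 and 12.1 CPM in wild type, a log2 difference of 0.33 ± 0.12 (SE). The genotypes did not overlap, but the calls lay close to the threshold. The PAC difference was called in 6 of 21 alternatives and was lost on leaving out any 1 of 9 of the 12 libraries, with values of 0.23 to 0.39. With GA3 it was called in 17 of 21, and was lost without 35S::KNAT1 PAC+GA3 replicate 1 (0.36), without its replicate 3 (0.38) and without wild-type PAC+GA3 replicate 1 (0.30).

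AT2G42130, the other gene of this pair, had no called difference. It had 41.3, 42.2 and 45.3 CPM in 35S::KNAT1 with GA3 against 46.4, 49.6 and 49.1 CPM in wild type, a log2 difference of -0.17 ± 0.07 (SE, 95% interval -0.33 to -0.01). In PAC, AT2G42130 had 41.5, 44.3 and 44.1 CPM in 35S::KNAT1 against 46.7, 47.1 and 46.7 CPM in wild type, a log2 difference of -0.11 ± 0.07 (SE, 95% interval -0.27 to 0.04). The 35S::KNAT1 libraries lay slightly below the wild-type ones in both media. PGL34 had 0.420 to 0.473 reads per AT2G42130 read in 35S::KNAT1 against 0.276 to 0.313 in wild type with GA3, and 0.370 to 0.448 in 35S::KNAT1 against 0.260 to 0.335 in wild type in PAC, without overlap.

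**Figure D3:**
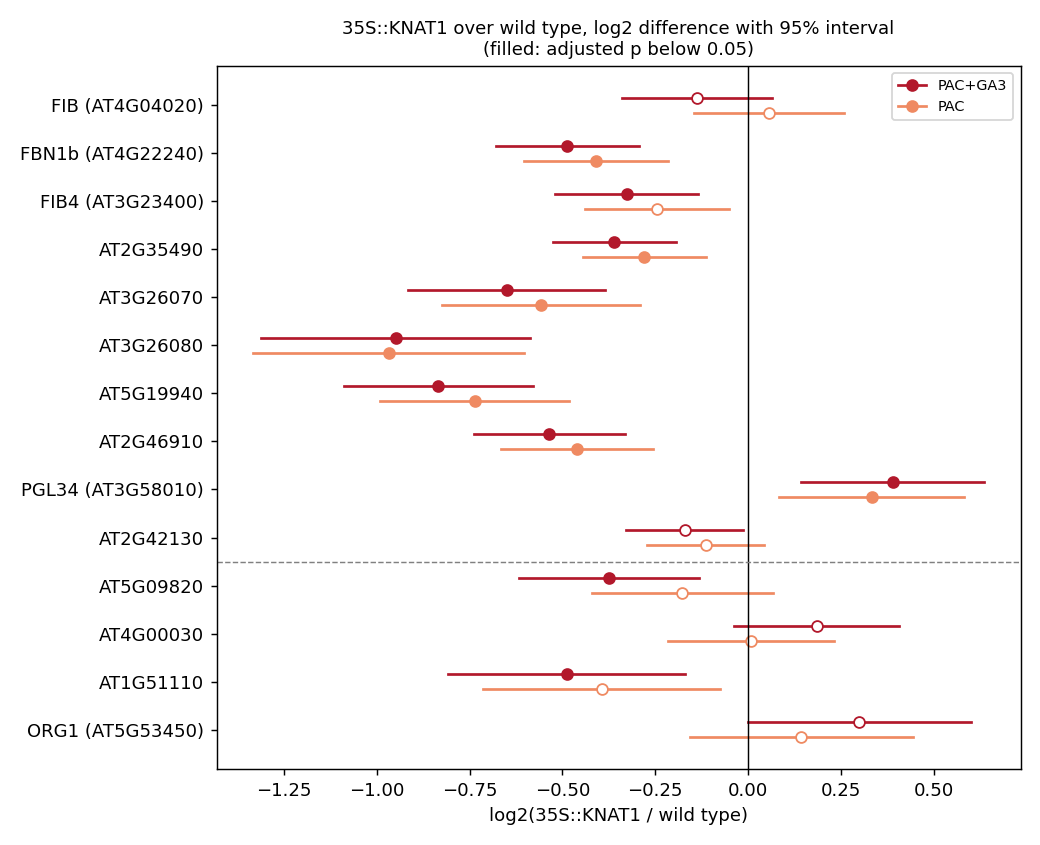
Log2 difference of 35S::KNAT1 over wild type (horizontal axis) with its 95% interval for the 10 listed fibrillins (above the dashed line) and 4 other family members (below it), with GA3 (dark) and in PAC (light). Filled points are called at an adjusted p below 0.05, and the values run from -0.97 for AT3G26080 to 0.39 for PGL34.

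Of the 4 other family members, 2 were called lower in 35S::KNAT1 with GA3 and 0 in PAC by edgeR, and 1 in each medium by DESeq2. AT5G09820 differed by -0.37 ± 0.12 (SE, adjusted p = 0.0230) with GA3 and by -0.18 ± 0.12 (SE, adjusted p = 0.296) in PAC. AT1G51110 differed by -0.49 ± 0.15 (SE, adjusted p = 0.0254) with GA3 and by -0.39 ± 0.15 (SE, adjusted p = 0.0683) in PAC, where 1 of the 4 passed an unadjusted p of 0.05 and this was the one. Its genotypes overlapped with GA3, at 45.5 to 63.7 CPM in 35S::KNAT1 against 59.7 to 87.0 CPM in wild type, but not in PAC. The other two had values above 0 that were not called. AT4G00030 differed by 0.19 ± 0.11 (SE, adjusted p = 0.224) with GA3 and by 0.01 ± 0.11 (SE, adjusted p = 0.965) in PAC. ORG1 (AT5G53450, OBP3-responsive gene 1) had 234, 237 and 263 CPM in 35S::KNAT1 against 179, 194 and 223 CPM in wild type with GA3, without overlap, a log2 difference of 0.30 ± 0.14 (SE, adjusted p = 0.138), and in PAC it differed by 0.14 ± 0.14 (SE, adjusted p = 0.513). Whether these 4 differed from the 10 listed loci was not tested.

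Levels of different genes were compared per kilobase of exon. In wild type in PAC the order of the 10 loci began with AT5G19940 at 244 ± 19.5 and FBN1b at 123 ± 2.39 CPM per kb, followed by FIB4, AT2G35490 and AT3G26070 at 74.0 ± 2.53, 69.3 ± 4.67 and 64.2 ± 4.66 CPM per kb (SD, n = 3). The ranges of FIB4 and AT2G35490 overlapped, as did those of AT2G35490 and AT3G26070. Next came AT2G46910 at 44.4 ± 3.22, FIB at 37.8 ± 4.51, AT2G42130 at 25.4 ± 0.132, AT3G26080 at 14.4 ± 3.16 and PGL34 at 8.61 ± 1.13 CPM per kb (SD, n = 3), of which AT2G46910 and FIB overlapped. In 35S::KNAT1 in PAC the first of this order was again AT5G19940, at 147 ± 19.5 CPM per kb, followed by FBN1b at 92.5 ± 8.91. FIB at 39.3 ± 3.25 stood above AT2G46910 at 32.2 ± 1.20, and PGL34 at 10.9 ± 1.10 above AT3G26080 at 7.37 ± 0.989 CPM per kb (SD, n = 3). With RefSeq exon lengths, the means of these neighbouring pairs stood in the other order than in wild type, without overlap of their ranges in 35S::KNAT1. The RefSeq start differs from that of the count table by 261 bases for FIB and 618 for PGL34, against 0 for AT2G46910 and AT3G26080. Whether these orders hold with the lengths of the count table's gene models was not tested.

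GA3 changed none of the fibrillins detectably within 5 h. In 35S::KNAT1, 0 of the 10 were called, where 0.111% of all genes tested were, and 1 passed an unadjusted p of 0.05 by edgeR (5.61% of all genes did) and 0 by DESeq2. That 1 was FIB, whose 3 libraries with GA3 (53.7 to 56.9 CPM) lay below its 3 libraries in PAC (60.9 to 70.6 CPM), as did those of 6.82% of all genes, a log2 difference of -0.21 ± 0.10 (SE). In wild type, 0 of the 10 were called, where 0.0453% of all genes tested were, and 0 passed an unadjusted p of 0.05 by edgeR (8.78% of all genes did) or by DESeq2. The log2 differences ran from -0.21 to 0.09 in 35S::KNAT1 and from -0.05 to 0.16 in wild type. These edgeR values come from the fit without a replicate block, that is, without pairing same-numbered libraries. With the block, 0 of the 10 were called in either genotype, where 81 of all genes were called in 35S::KNAT1 and 94 in wild type.

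The 95% intervals of the 10 loci lay between -0.42 and 0.35 for GA3 in 35S::KNAT1 and between -0.39 and 0.41 for GA3 in wild type. A test of the difference between these GA3 effects called 0 of the 10, and 0 passed an unadjusted p of 0.05 by edgeR or by DESeq2. Over all genes 0% were called for this difference, and 363 genes, 1.83%, passed an unadjusted p of 0.05. The intervals of the difference lay between -0.50 and 0.54 for the 10 loci. The GA3 and genotype comparisons share groups with each other, so their values are set side by side without a test of how alike they are.

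**Figure D4:**
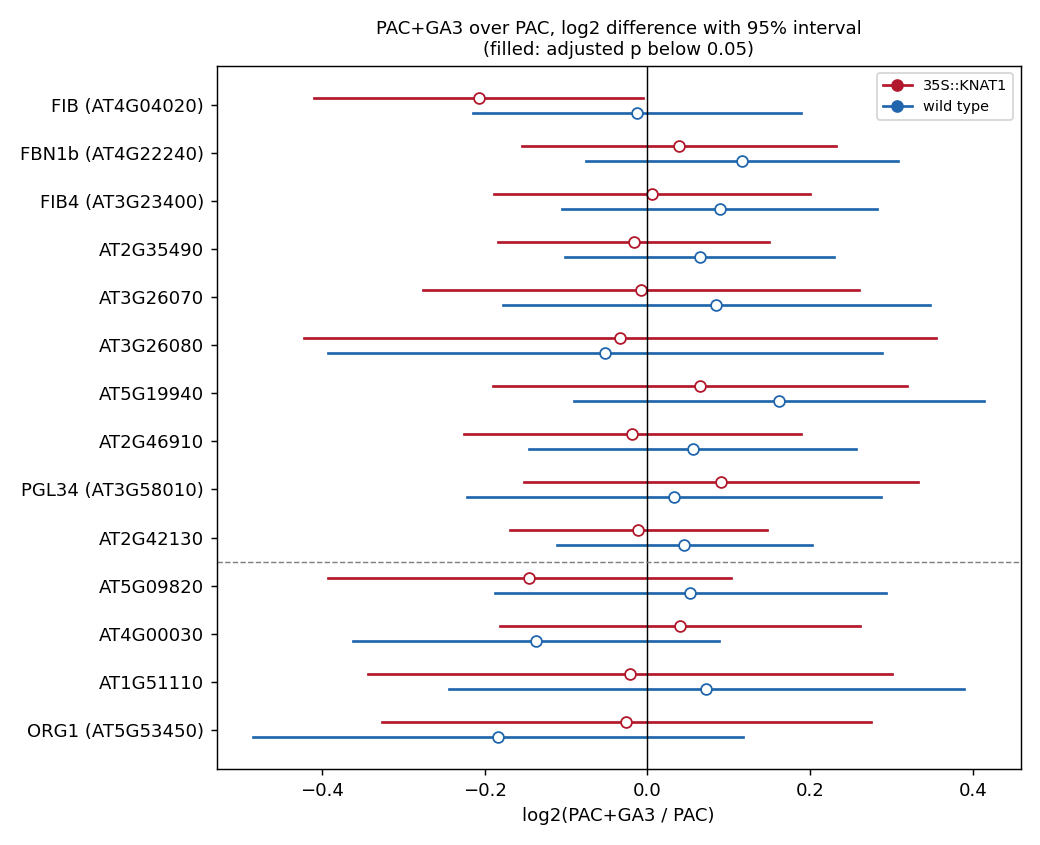
Log2 difference of PAC+GA3 over PAC (horizontal axis) with its 95% interval in 35S::KNAT1 (red) and wild type (blue), for the 10 listed fibrillins (above the dashed line) and 4 other family members (below it). All points are open, none being called at an adjusted p below 0.05, and for the 10 listed loci they lie between -0.21 and 0.16.

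Summed over the 10 loci, the fibrillins had 660 to 770 CPM in 35S::KNAT1 with GA3 against 915 to 1068 CPM in wild type with GA3, and 670 to 778 CPM in 35S::KNAT1 in PAC against 932 to 970 CPM in wild type in PAC. Relative to the summed green tissue markers the order was the other way round. The fibrillin sum was 2.88% to 3.03% of the green marker sum in 35S::KNAT1 against 1.98% to 2.15% in wild type with GA3, and 2.89% to 3.17% in 35S::KNAT1 against 2.12% to 2.15% in wild type in PAC. Much of the green marker sum is RBCS1A and CAB1, named after their values were seen. In PAC their means were 13100 and 12470 CPM in wild type, and 6679 and 6696 CPM in 35S::KNAT1.

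**Figure D5:**
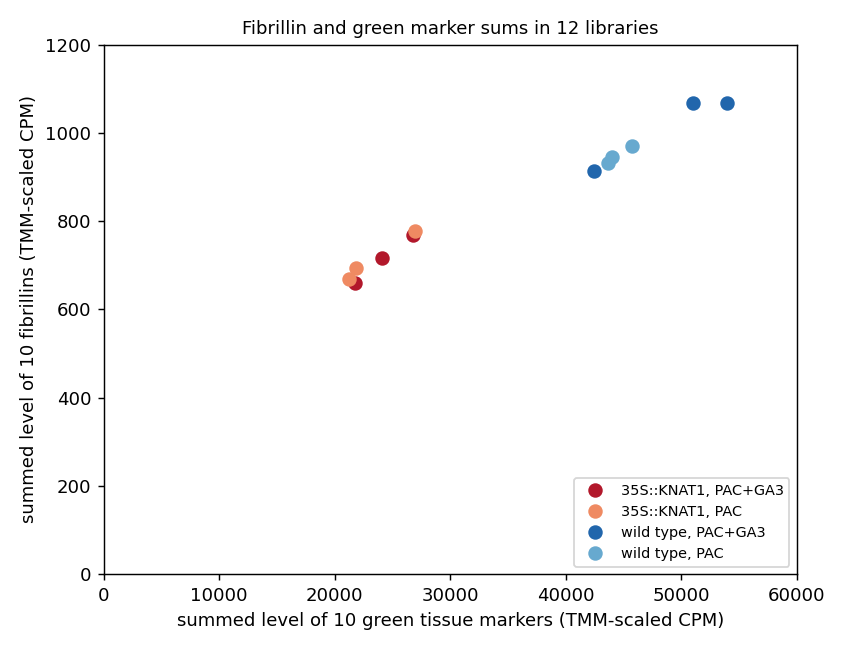
Summed TMM-scaled CPM of the 10 fibrillins (vertical axis) against the summed CPM of 10 green tissue markers (horizontal axis), 1 point per library, both axes from 0. The 6 libraries of 35S::KNAT1 lie at 21220 to 26980 CPM of green markers and those of wild type at 42490 to 53980 CPM.

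Across the 12 libraries, which share the genotype difference, 8 of the 10 loci varied together on the log2 CPM scale, with Pearson correlations of 0.843 to 0.972 among FBN1b, AT2G35490, AT3G26070, AT3G26080, FIB4, AT5G19940, AT2G42130 and AT2G46910. FIB stood apart from them, with correlations of 0.036 to 0.22, and PGL34 ran opposite to all the others, at -0.281 to -0.732. Group means were not removed, so these correlations contain the genotype differences given above and add no separate result. The tested genes outside the list whose levels were most like FBN1b were CAB2 (chlorophyll a/b-binding protein, 0.987), PDS1 (the dioxygenase that makes the precursor of plastoquinone and tocopherol, 0.986), AT4G02770 (photosystem I subunit, 0.985), PSBO-1 (oxygen-evolving complex, 0.984) and LHCB2.2 (light harvesting, 0.982). Those most like FIB reached no more than 0.845, for AT1G77200, an integrase-type DNA-binding protein. Next came AT5G56990 (0.834), AT1G25682 (0.82), AT1G69680 (0.809) and the peroxidase family gene AT4G16270 (0.784). The genes named for FBN1b and for FIB are the top of rankings over all tested genes outside the list, with 12 libraries. Whether the highest of so many correlations exceed those that unrelated genes would reach was not tested. Nothing is therefore read from the genes named for FIB or their functions.

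Genes whose products work at plastoglobules or make the lipids stored there were described from lists drawn up with earlier results known. Of 12 plastoglobule proteins other than fibrillins, 6 were called lower and 2 higher in 35S::KNAT1 with GA3, and 4 lower and 1 higher in PAC, with medians of -0.29 and -0.16. DESeq2 called 6 lower and 2 higher with GA3, and 3 lower and 1 higher in PAC. For this list and those below, the shares called by edgeR over all genes tested were 13.6% lower and 12% higher with GA3. In PAC these shares were 12.9% lower and 12.3% higher. Nothing is read from the counts of these lists. VTE1, the tocopherol cyclase, differed by -0.77 ± 0.18 (SE, adjusted p = 0.00375) with GA3. ABC1K3, a plastoglobule kinase, differed by -0.32 ± 0.09 (SE, adjusted p = 0.0103) in PAC. PES2, a phytyl ester synthase that esterifies phytol from chlorophyll breakdown, was higher, by 0.59 ± 0.12 (SE, adjusted p = 0.00165) with GA3 and 0.56 ± 0.12 (SE, adjusted p = 0.00191) in PAC.

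Of 11 genes of plastoquinone and tocopherol synthesis, 7 were called lower and 1 higher in either medium by edgeR. DESeq2 called 7 lower and 1 higher with GA3, and 5 lower and 1 higher in PAC. VTE1 belongs to this list and to that of the plastoglobule proteins, and as a gene called lower in both media by edgeR it is counted in each. SPS1 and SPS2, the solanesyl diphosphate synthases that make the side chain of plastoquinone, differed by -0.72 ± 0.10 and -0.86 ± 0.11 (SE) with GA3, and by -0.87 ± 0.11 and -0.72 ± 0.11 (SE) in PAC. Geranylgeranyl reductase (AT1G74470), which supplies the phytyl chain of chlorophyll and tocopherol, differed by -0.68 ± 0.11 and -0.71 ± 0.11 (SE). Among 14 carotenoid synthesis genes 8 were called lower with GA3 and 6 in PAC, and 0 higher by edgeR or by DESeq2. Their lowest value was that of BETA-OHASE 2 (AT5G52570), a beta-carotene hydroxylase, at -3.14 ± 0.29 with GA3 and -3.42 ± 0.32 in PAC (SE). PSY, phytoene synthase and the entry step of the pathway, differed by -0.66 ± 0.10 with GA3 and -0.54 ± 0.10 in PAC (SE).

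Of 7 tested genes listed for thylakoid glycolipid synthesis, 2 were called lower and 0 higher with GA3 by edgeR and by DESeq2, and 2 lower and 1 higher in PAC. Over all genes tested, 25.5% were called in either direction with GA3 and 25.2% in PAC by edgeR. The lower ones were DGD1, which makes digalactosyldiacylglycerol (-0.40 ± 0.09 with GA3, -0.44 ± 0.09 in PAC, SE), and PTAC4 (AT1G65260, also known as VIPP1), which is needed for thylakoid formation and is not a glycolipid synthase (-0.56 ± 0.10 with GA3, -0.48 ± 0.10 in PAC, SE). The higher one in PAC was MGD1, which makes monogalactosyldiacylglycerol, at 0.23 ± 0.08 (SE, adjusted p = 0.0407). None of the genes in these 4 lists was called for GA3 in either genotype by edgeR or by DESeq2. At an unadjusted p of 0.05 by edgeR, 1 plastoglobule gene passed in each genotype, and 1 carotenoid and 1 glycolipid gene in 35S::KNAT1. DESeq2 gave the same counts but for the glycolipid genes, of which 0 passed.

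The 300 bases before the RefSeq start of each listed gene were searched on both strands for 3 short motifs. The G-box CACGTG, a site of light-regulated bZIP and bHLH factors, was found in 1 of the 10, against 7.09% of 27443 nuclear protein-coding genes. GATAAG, the I-box of light-regulated promoters, was found in 1 of the 10, against 14.5%. TGACAG, which holds the TGAC core known to be bound by KNOX homeodomain proteins, was found in 2 of the 10, against 6.88%. The windows with a match are shown with the matches in capitals. No motif was found in all 3 of these windows. AT3G26070, AT3G26080, FIB4, AT5G19940 and AT2G42130, whose levels varied with those of the genes shown, had no match. FBN1b has CACGTG at 232 bases before its start (chr4:11767423-11767722, minus strand). AT2G35490 has TGACAG at 204 and GATAAG at 95 bases before its start (chr2:14913895-14914194, minus strand). AT2G46910 has TGACAG at 131 bases before its start (chr2:19271981-19272280, plus strand).
FBN1b: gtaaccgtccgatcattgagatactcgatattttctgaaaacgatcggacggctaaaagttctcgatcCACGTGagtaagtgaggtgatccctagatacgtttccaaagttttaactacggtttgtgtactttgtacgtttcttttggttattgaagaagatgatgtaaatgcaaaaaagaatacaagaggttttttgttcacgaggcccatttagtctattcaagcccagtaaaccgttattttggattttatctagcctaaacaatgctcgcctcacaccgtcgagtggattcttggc
AT2G35490: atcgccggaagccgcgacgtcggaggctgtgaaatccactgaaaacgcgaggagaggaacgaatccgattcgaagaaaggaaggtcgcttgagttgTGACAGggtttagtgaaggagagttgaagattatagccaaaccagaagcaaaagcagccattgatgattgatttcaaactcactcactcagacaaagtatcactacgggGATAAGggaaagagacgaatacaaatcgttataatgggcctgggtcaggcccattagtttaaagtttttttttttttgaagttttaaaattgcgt
AT2G46910: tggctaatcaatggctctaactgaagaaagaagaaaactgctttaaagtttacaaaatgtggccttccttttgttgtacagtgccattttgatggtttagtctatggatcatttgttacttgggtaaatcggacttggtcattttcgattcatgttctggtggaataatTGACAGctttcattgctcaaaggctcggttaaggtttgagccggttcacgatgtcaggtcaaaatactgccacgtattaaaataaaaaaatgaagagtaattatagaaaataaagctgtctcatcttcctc
A match describes the letters only, and none of these libraries measured binding. The gene starts of RefSeq are the same as those in the count table for 3 of the 10 loci and differ for the others.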

How the data were processed

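RNA of whole seedlings was measured in 12 libraries. Each library has its own column of raw read counts in the table the authors deposited. The submitters' processing notes name the TAIR10 genome and, without roles, TopHat2 2.1, cutadapt 1.8.3, FastQC 0.11.5, edgeR 3.0.2 and DESeq2 1.16.1. Which program counted the reads, and whether by strand, is not given in the sources used here. The labels' protocols name both RNeasy and Trizol, and both a plain and a stranded TruSeq kit.

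The members and all gene lists were chosen with earlier results of these data known. Named genes were the 10 loci, 4 other family members, KNAT1, the list genes with the smallest p-values per comparison (3 by genotype, 2 by GA3) and the 5 genes most correlated with FIB and with FBN1b. Some of these are given by counts only. The test was edgeR 4.0.16 (R 4.3.3) on the deposited counts. After filterByExpr (minimum count 10) 19879 genes remained, TMM factors scaled the libraries, and all 12 entered a single quasi-likelihood fit of 4 group means. Adjusted p-values are Benjamini-Hochberg over all genes tested, called below 0.05. Correlations used log2 CPM with a prior count of 2. DESeq2 1.42.0 was an alternative, and other alternatives changed the scaling, the filter, the groups fitted, the genes counted or the libraries. The test was checked on simulated data in which few genes changed, each by more than any fibrillin difference given here. That check therefore does not cover differences as small as those of the fibrillins. Sequences, exon lengths and start sites came from RefSeq's TAIR10.1 with Biopython 1.88.

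The titles give same-numbered replicates a shared letter without saying what it marks. Deviations of same-numbered libraries from their group means correlated at 0.25, 0.22 and 0.103 between genotypes in PAC, at 0.169, 0.12 and 0.203 for GA3 in 35S::KNAT1 and at 0.359, 0.17 and 0.288 for GA3 in wild type, so the numbers were taken to pair these. Between genotypes with GA3 they were 0.134, -0.029 and 0.079 and were not. Libraries of different numbers were not correlated for comparison, so whether the numbers mark true pairs was not tested. The calls, errors, intervals and shares over all genes nevertheless come from the fit without this pairing, unless the replicate block is named. With the block, 81 of all genes were called for GA3 in 35S::KNAT1 and 94 in wild type, against 22 and 9 without it.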

Additional observations from a re-analysis of the deposited data

How the results depend on the processing

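Direction and call were recomputed for the 10 loci under 21 alternatives (20 for the interaction). No called difference changed its sign. The count of loci higher in 35S::KNAT1 in PAC, which is PGL34 alone, was 1 and became 0 with no filter, the stricter filter, rRNA and organelle genes left out, only the groups compared, DESeq2, and the 3 libraries of high rRNA share left out. It ranged from 0 to 1 when each library was left out in turn. With GA3 it became 0 without the 3 libraries of high rRNA share and again ranged from 0 to 1. The count of loci lower in PAC became 3 without those 3 libraries, which leaves 1 wild-type library in PAC, assumed to vary like the other groups. With the replicate block, 8 of the 10 loci were called between genotypes in PAC, FIB4 being added, and 8 with GA3. The block changed no other call of the 10, and 0 loci were called for GA3 in either genotype. It moved the count of all genes called for GA3 to 81 in 35S::KNAT1, against 22 without it, and to 94 in wild type, against 9. Total-count scaling moved the median of all genes to 0.099 in PAC and 0.115 with GA3 (log2), and the share of calls that were higher to 67.4% and 66.5%. Under it AT2G35490 in PAC (-0.18) and FIB4 with GA3 (-0.22) were not called. Groups of 3 libraries and a common biological variation of 10.3% limit what can be seen of small differences.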
